A study of Mus musculus with 4 samples.

Results

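The proteasome genes of the mouse were taken as the rows whose symbol begins with Psm, a letter from a to g and a digit, which gave 50 of 24784 genes. They comprised 14 constitutive subunits of the 20S core, 17 subunits of the 19S cap, 3 catalytic subunits of the immunoproteasome, 2 interferon-induced activator genes and 7 assembly chaperones. The remaining genes were 3 other activators or inhibitors, a copy of Psme2 (Psme2b), a germ cell form (Psma8), a thymus form (Psmb11) and Psmc3ip. Psmc3ip encodes a protein that binds a proteasome ATPase and is itself no subunit, so it matched by name only. The genes known to be induced by interferon-gamma, Psmb8, Psmb9, Psmb10, Psme1 and Psme2 (5 in all), were set against the other 45. RNA was measured by sequencing of polyadenylated RNA from tumour-associated macrophages sorted from liver tumours, in 2 libraries of OXCT1mKO mice and 2 libraries of control mice. The labels' protocols name an oligonucleotide microarray, whereas the deposited values are RPKM, so that text does not describe this measurement. Mice of both groups were male, were 6 to 8 weeks old and had received Hepa 1-6 cells, a mouse hepatoma line. The OXCT1mKO genotype names Oxct1, which encodes a mitochondrial enzyme of ketone body use. The sources used here do not give the alleles of either group, what drives the deletion or the number of animals per library. It is not stated that each library came from another animal, and p-values therefore cover only the spread between libraries, which could be technical.

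The proteasome degrades proteins tagged with ubiquitin. Its 20S core is a barrel of stacked rings: alpha subunits form the outer rings and gate the entry, and beta subunits form the inner rings, where Psmb5, Psmb6 and Psmb7 carry the active sites. The 19S cap binds ubiquitin chains, unfolds the substrate with a ring of ATPases and feeds it into the core. Under interferon-gamma, and constitutively in many leukocytes, newly built cores take up Psmb8, Psmb9 and Psmb10 in place of Psmb5, Psmb6 and Psmb7, giving the immunoproteasome. Its peptide products suit loading onto class I MHC molecules. Psme1 and Psme2 encode the alpha and beta subunits of the PA28 activator, an alternative cap that opens the core without ubiquitin.

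Values were RPKM, read density per kilobase of each gene, scaled to library size. Calls come from limma on log2(RPKM + 1) with a Benjamini-Hochberg adjusted p under 0.05 over the 12523 genes whose mean RPKM was 1 or more. Of these genes, 2052 (16.4%) were lower and 2058 (16.4%) were higher in OXCT1mKO. With libraries scaled to equal sums without globin, 1478 were lower and 2718 were higher. The median log2 fold change of all tested genes was 0.00. Oxct1 itself had 14.7 and 15.4 RPKM in the OXCT1mKO libraries and 19.3 and 20.3 RPKM in the control libraries. Its groups did not overlap, and its log2 fold change was -0.37 ± 0.09 (SE; limma adjusted p = 0.0346), so the summed RPKM of the gene was lowered and not lost. That call was not made without OXCT1mKO 1 (adjusted p = 0.225), without OXCT1mKO 2 (0.162) or without control 2 (0.0559). One value per gene does not show whether the remaining Oxct1 transcript was intact or from which cells it came. Exons of BC037032 also overlap 12.6% of the Oxct1 exon bases on the opposite strand. Globin transcripts took 0.137% and 0.132% of the RPKM sum in OXCT1mKO libraries, and 8.81% and 0.327% in control libraries.

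Across the family, 19 of the 31 constitutive subunits of the core and the cap were lower in OXCT1mKO macrophages, and the 3 immunoproteasome catalytic genes were not called. The contrast of the 5 interferon-induced genes with the rest is given as a description, with no p. Of the 48 proteasome genes tested, 24 (50%) were lower, against 16.4% of all tested genes, and 0 were higher in the limma fit, also at an unadjusted p under 0.05. At an unadjusted p under 0.05, 35 were lower. The median log2 fold change of the 48 was -0.37, and 44 of them lay below 0. Both OXCT1mKO libraries lay below both controls for 40 of the 48, against 37.0% of all tested genes, and above both controls for 2 (Psmb8 and Psme4), against 37.6%. All 31 constitutive subunits had negative values, and 30 had groups that did not overlap, Psma3 being the exception. Among the 5 interferon-induced genes 0 were called in the limma fit, and 1 (Psme2) had an unadjusted p under 0.05. The 24 calls rest on both OXCT1mKO libraries: without OXCT1mKO 1 or without OXCT1mKO 2, 0 proteasome genes were called, with 20 and 21 at an unadjusted p under 0.05. In those same fits only 1 and 10 of all tested genes were called. The 24 values themselves stayed negative under every alternative tried.

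**Figure D1:**
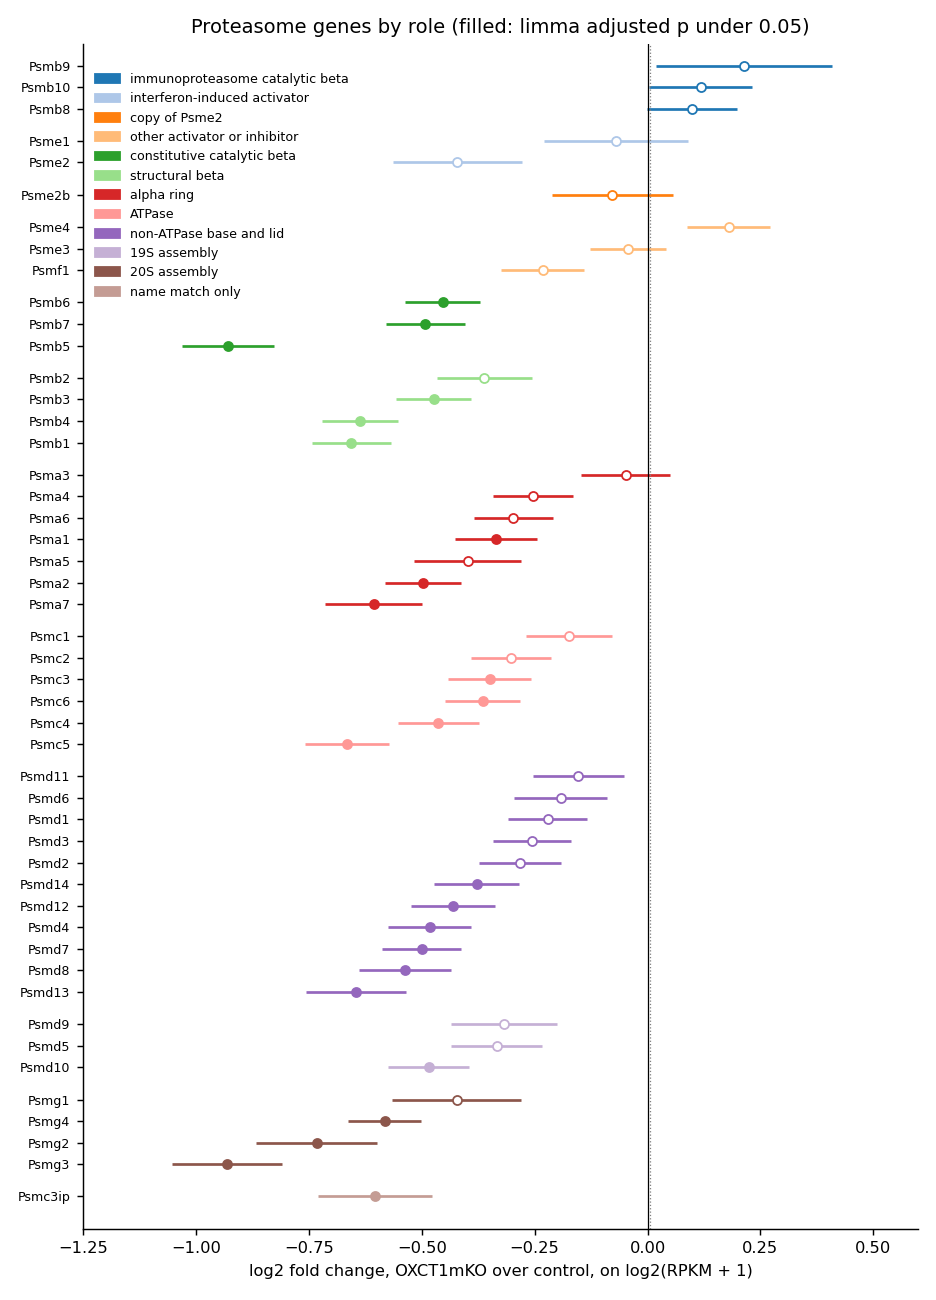
The plot of fold changes by role gives the log2 fold change of OXCT1mKO over control on the log2(RPKM + 1) scale (x axis) for the 48 tested proteasome genes (y axis), with bars for SE; filled points have a limma adjusted p under 0.05, colours mark roles, and the dotted line is the median of all tested genes. The 24 filled points are all left of 0, and the 3 immunoproteasome catalytic genes lie at 0.10 to 0.21.

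Psmb5 had the largest fold change of the 14 constitutive core subunits. This gene encodes the subunit with the chymotrypsin-like activity, the main target of proteasome inhibitors such as bortezomib. It had 45.9 and 51.1 RPKM in the OXCT1mKO libraries, against 96.8 and 89.4 RPKM in the control libraries. Both OXCT1mKO values were far below both controls, with a log2 fold change of -0.93 ± 0.10 (SE; limma adjusted p = 0.0127). Psmb7, which carries the trypsin-like site, had 89.0 and 84.1 RPKM in OXCT1mKO and 121.9 and 122 RPKM in control. Its log2 fold change was -0.49 ± 0.09 (adjusted p = 0.0193). Psmb6, which carries the caspase-like site, had 65.9 and 68.2 RPKM in OXCT1mKO and 93.3 and 91.1 RPKM in control (log2 fold change -0.45 ± 0.08, adjusted p = 0.0209). All 3 constitutive catalytic genes were thus lower, with no overlap of groups. Over all tested genes, 16.4% were lower and 37.0% lay below both controls. As a restatement of that largest change, the log2 ratio of Psmb5 to the geometric mean of the other 13 constitutive core subunits was -0.29 and -0.12 in OXCT1mKO and 0.36 and 0.26 in control. Without OXCT1mKO 1 or OXCT1mKO 2 the adjusted p of Psmb5 was 0.104 and 0.0718.

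Transcripts of Psmb5 share sequence with other loci. The gene lies at chr14:54614119-54618022 on the minus strand (GRCm38, GENCODE M21), and 54.1% of the 50-base windows of its transcripts also occur in Gm3375, Mir686 or Psmb5-ps. Mir686 overlaps 12.1% of its exon bases on the same strand and has a row of its own, with 60.4 and 76.0 RPKM in OXCT1mKO and 123 and 122 RPKM in control. Reads of the host transcript and of the miRNA precursor cannot be told apart there. Gm3375 and Psmb5-ps have no row in the deposited values, and how shared reads were counted is not stated.

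The 3 immunoproteasome catalytic genes kept levels within the range of the controls or just above it. Psmb8, the counterpart of Psmb5, had 135 and 137 RPKM in OXCT1mKO and 134 and 119.9 RPKM in control. The OXCT1mKO values lay just above both controls, and the log2 fold change was 0.10 ± 0.10 (SE; limma adjusted p = 0.467). Psmb9, the counterpart of Psmb6, had 95.9 and 101 RPKM in OXCT1mKO and 102 and 69.9 RPKM in control. Its groups overlapped, because control 1 was higher than both OXCT1mKO libraries and control 2 was the lowest of the 4. Psmb10, the counterpart of Psmb7, had 67.3 and 67.2 RPKM in OXCT1mKO and 67.6 and 56.7 RPKM in control, the same layout. The log2 fold changes were 0.21 ± 0.19 for Psmb9 (adjusted p = 0.422) and 0.12 ± 0.11 for Psmb10 (adjusted p = 0.453). The control pair set these values. Without control 1 Psmb9 was called higher (0.49, adjusted p = 0.0336), and without control 2 it was -0.06 (adjusted p = 0.623). Psmb10 was -0.01 without control 2.

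**Figure D2:**
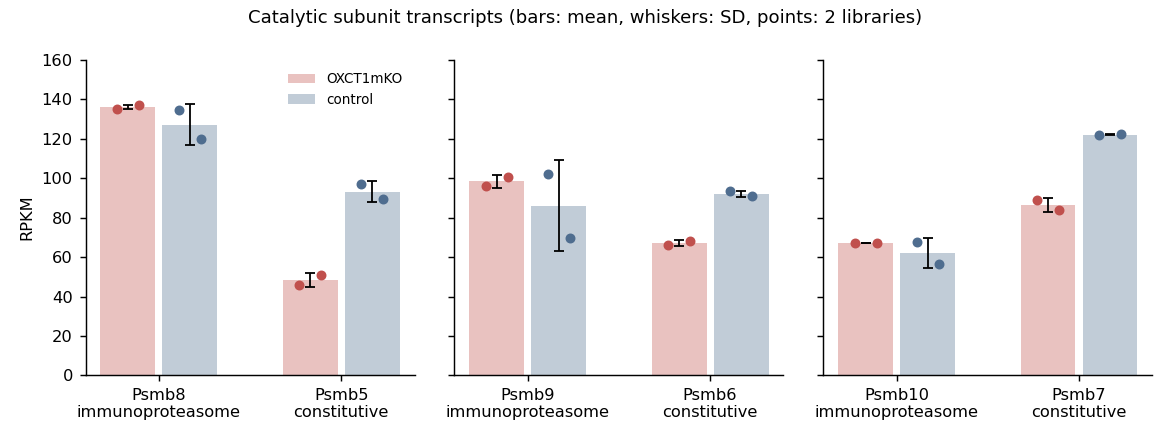
Level in RPKM (y axis) of each immunoproteasome catalytic gene beside its constitutive counterpart, with OXCT1mKO left of control; bars are means, whiskers SD and points the 2 libraries of each group. Psmb5 falls to 45.9 and 51.1 RPKM in OXCT1mKO, where Psmb8 has 135 and 137 RPKM.

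Psmb8 and Psmb9 sit beside each other in the MHC region, at chr17:34197721-34201454 on the plus strand and chr17:34181987-34187764 on the minus strand, with the peptide transporter genes Tap1 and Tap2 between and next to them. Exons of Tap1 overlap 5.79% of the Psmb9 exon bases on the opposite strand, exons of Gm20496 overlap 14.7% of those of Psmb8, and exons of Nek6 overlap 11.8% of those of Psmb7. The sources used here do not state the strand setting of the counting, so such reads cannot be told apart from those of the partner.

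The upstream windows of 4 catalytic genes are shown because they hold a match to a searched motif and the genes belong to the replacement pairs compared. The window of Psmb10 held none of the 4 motifs and is not shown. Psmb7 had no promoter entry, so it was not searched. The windows shown are from RefSeq (GRCm38.p6), 5′ to 3′, with motif matches in capitals. The windows of Psmb8 and Psmb9 lie inside exons of longer transcripts, so only 30 bases around the match are given. For Psmb5 the stretch is chr14:54618023-54618245 on the minus strand, for Psmb6 it is chr11:70525107-70525356 on the plus strand. Those of Psmb8 and Psmb9 are chr17:34198088-34198117 on the plus strand and chr17:34187371-34187400 on the minus strand.
Psmb8: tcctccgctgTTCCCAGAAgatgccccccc
Psmb5: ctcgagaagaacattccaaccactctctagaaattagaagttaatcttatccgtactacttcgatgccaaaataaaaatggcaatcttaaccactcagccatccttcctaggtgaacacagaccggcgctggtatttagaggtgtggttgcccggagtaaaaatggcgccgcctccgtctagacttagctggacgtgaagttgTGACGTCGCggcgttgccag
Psmb9: ccttgcgcgaTGATGGGGCggggcctcagt
Psmb6: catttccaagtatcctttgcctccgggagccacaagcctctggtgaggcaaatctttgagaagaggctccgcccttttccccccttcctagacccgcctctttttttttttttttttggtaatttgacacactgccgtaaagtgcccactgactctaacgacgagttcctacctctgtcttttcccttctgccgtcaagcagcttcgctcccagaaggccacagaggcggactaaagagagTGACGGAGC

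The match in Psmb8, 97 bases upstream of the RefSeq start, reads TTCCCAGAA and has the letters TTCNNNGAA of a STAT site. The matches in Psmb5, Psmb9 and Psmb6 begin 47, 60 and 9 bases upstream of the start. They fit TGANNNNGC, a loose pattern searched for an antioxidant response core, in which N is any base. After TGA the matches in Psmb5 and Psmb6 read C, and that in Psmb9 reads T. Each motif was searched on both strands in the 250 bases before the start, where TTCNNNGAA occurred in 2 of 45 promoter entries of proteasome genes and in 7.02% of 32851 promoters. For TGANNNNGC the figures were 18 of 45 and 35.2%. The interferon response element core GAAANNGAA was found in 3 of 45 (Psmb3, Psmd4 and Psmd9) and in 7.13% of all promoters, and the NF-kB core GGGNNTTCC in 1 of 45 (Psmd11) and in 4.98%. Promoter entries were matched for 42 of the 50 genes.

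As plain RPKM ratios, the replacement pairs can be compared within each library without regard to how libraries were scaled. The log2 differences given here were taken on log2(RPKM + 1) and so depend slightly on that scaling. The level of Psmb8 was 2.95 and 2.68 times that of Psmb5 in the OXCT1mKO libraries, and 1.39 and 1.34 times in the control libraries. On the log2 scale the ratio was higher by 1.03 in OXCT1mKO. Psmb9 stood at 1.46 and 1.48 times Psmb6 in OXCT1mKO and at 1.10 and 0.767 times in control, a log2 difference of 0.67. Psmb10 stood at 0.756 and 0.800 times Psmb7 in OXCT1mKO and at 0.555 and 0.464 times in control, a log2 difference of 0.61. For all 3 pairs both OXCT1mKO libraries lay above both controls. The two-sided exact permutation p was 0.333 for each, the smallest that 2 libraries against 2 allow, and 0.417 after Benjamini-Hochberg adjustment over 5 ratios. Leaving out control 1 or control 2 in turn gave log2 differences of 0.92 and 0.41 for the Psmb9 pair, whereas the Psmb8 pair stayed between 0.96 and 1.10.

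**Figure D3:**
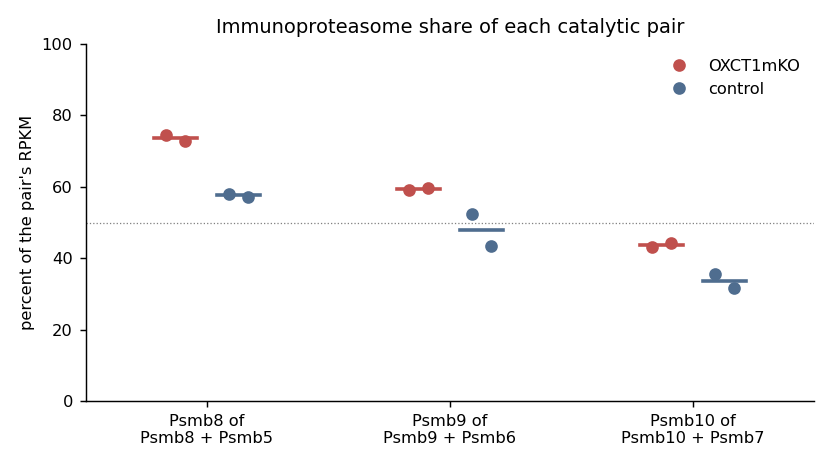
Percent of the summed RPKM of each replacement pair held by the immunoproteasome gene (y axis) for the 3 catalytic pairs (x axis); points are libraries, bars group means, OXCT1mKO left of control, and the dotted line marks equal levels. Psmb8 holds 74.7% and 72.8% of its pair in OXCT1mKO and 58.1% and 57.3% in control.

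Together, Psmb8, Psmb9 and Psmb10 made up 59.79% and 59.99% of the summed RPKM of the 6 catalytic transcripts in OXCT1mKO, and 49.4% and 44.9% in control. The 5 interferon-induced genes made up 19.8% and 19.9% of the whole proteasome sum in OXCT1mKO and 16.4% and 13.6% in control. That sum was itself 0.670% and 0.677% of the RPKM of the OXCT1mKO libraries and 0.772% and 0.782% of the control libraries. The library totals include globin, which took 8.81% in control 1 and 0.327% in control 2. In OXCT1mKO it took 0.137% and 0.132%, and these shares were not recomputed without it. The mean log2 level of the 5 genes exceeded that of the other 43 tested by 1.31 and 1.28 in OXCT1mKO and by 1.07 and 0.74 in control, a difference of 0.39 on the log2 scale. The excess in control thus ran over a wider range than in OXCT1mKO, and without control 1 and without control 2 the difference was 0.56 and 0.23. In order of level per length, Psmb8 ranked 1 of the 50 in OXCT1mKO and ranked 3 in control. Psmb4 ranked 2 in OXCT1mKO and 1 in control, and Psmb5 ranked 20 in OXCT1mKO and 10 in control.

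The interferon-induced activator genes were not called either. Psme1 had 102 and 103 RPKM in OXCT1mKO and 125 and 93.1 RPKM in control, with overlapping groups and a log2 fold change of -0.07 ± 0.16 (SE; limma adjusted p = 0.748). Psme2 had 33.3 and 29.0 RPKM in OXCT1mKO and 46.9 and 37.6 RPKM in control. Its groups did not overlap, but the log2 fold change of -0.42 ± 0.14 did not pass over all genes (adjusted p = 0.0792). It passed without control 2 (-0.58, adjusted p = 0.0349) and with the replicate number as a block (adjusted p = 0.0445). The Psme2 value is uncertain, since 28.3% of its 50-base windows also occur in Psme2b or Gm7928. Psme2b, whose own windows are shared to 69.3%, had 75.4 and 77.5 RPKM in OXCT1mKO and 90.6 and 72.0 RPKM in control (log2 fold change -0.08, adjusted p = 0.669). Psme1 and Psme2 are neighbours on chromosome 14.

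None of the 3 other activators or inhibitors was called, and Psme3 was the closest of them to level. Psme3 encodes the nuclear PA28 gamma activator, which interferon-gamma does not induce. It had 26.3 and 27.4 RPKM in OXCT1mKO and 28.2 and 27.2 RPKM in control (log2 fold change -0.04, limma adjusted p = 0.703). Psme4, the PA200 activator known for its role in spermatogenesis, had 8.42 and 8.78 RPKM in OXCT1mKO and 7.57 and 7.39 RPKM in control. Its value was 0.18 (adjusted p = 0.189), the only positive one among the 43 tested members outside the interferon-induced genes. Psmf1, the PI31 protein, had 6.85 and 6.94 RPKM in OXCT1mKO and 8.19 and 8.36 RPKM in control. Both OXCT1mKO libraries lay below both controls, as for 37.0% of all tested genes. Its log2 fold change was -0.23 (limma adjusted p = 0.111). Set against Psme3 within each library, the log2 ratio of Psme1 differed by -0.03 and that of Psme2 by -0.38 between OXCT1mKO and control. The exact permutation p was 1 for Psme1 and 0.333 for Psme2.

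The structural beta subunits included the largest losses in absolute level. Psmb4 and Psmb1 were the 2 most abundant proteasome transcripts of the control libraries. Psmb1 had 96.7 and 99.9 RPKM in OXCT1mKO, against 159 and 152 RPKM in control (log2 fold change -0.66 ± 0.09, SE; limma adjusted p = 0.0131). Psmb4 had 107 and 106 RPKM in OXCT1mKO, against 166 and 165 RPKM in control (-0.64 ± 0.08, adjusted p = 0.0131). Psmb3 was lower by a smaller margin (-0.47 ± 0.08, adjusted p = 0.0188). Psmb2 had the smallest value of the 4, -0.36 ± 0.11, and did not pass (adjusted p = 0.0561), although it did without control 2 (0.0257). Both OXCT1mKO libraries lay below both controls for all 4, against 37.0% of all tested genes.

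Of the 7 alpha subunits, 3 were lower, against 16.4% of all tested genes. Psma7 had the largest change, with 60.7 and 66.4 RPKM in OXCT1mKO and 91.4 and 103 RPKM in control (log2 fold change -0.61 ± 0.11, SE; limma adjusted p = 0.0194). Psma2 followed at -0.50 ± 0.08 (adjusted p = 0.0179) and Psma1 at -0.34 ± 0.09 (adjusted p = 0.0468). Psma1 lost its call without control 1 (adjusted p = 0.0794), with equal sums without globin (0.115), without a filter (0.0644), without a trend (0.0643) and with the replicate block (0.0714). Psma3 had the smallest value, -0.05 ± 0.10, with 8.73 and 8.06 RPKM in OXCT1mKO and 8.93 and 8.49 RPKM in control. It was also the least abundant alpha subunit, and 15.4% of its 50-base windows occur in other genes. For Psma5 and Psma4 that share is 49.96% and 14.35%. Psma4, Psma5 and Psma6 had values from -0.40 to -0.25. Their adjusted p-values ran from 0.0569 to 0.0862. The genes of the ring thus covered a range of levels and changes although their products are built into the same ring in equal numbers.

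In the ring of ATPases that drives unfolding, 4 of 6 genes were lower, against 16.4% of all tested genes. Psmc5 had 47.6 and 42.9 RPKM in OXCT1mKO and 72.2 and 72.3 RPKM in control (log2 fold change -0.67 ± 0.09, SE; limma adjusted p = 0.0136). Psmc4 was at -0.46 (adjusted p = 0.0227), Psmc6 at -0.37 (0.0327) and Psmc3 at -0.35 (0.0444). The Psmc3 call was lost without control 1 (adjusted p = 0.079), without control 2 (0.0599), with equal sums without globin (0.0937), without a filter (0.0632), without a trend (0.0612) and with the replicate block (0.067). The Psmc6 call was lost with equal sums (0.0602) and with the block (0.0577). Psmc1 had the smallest value (-0.17, adjusted p = 0.207), with 46.1 and 48.8 RPKM in OXCT1mKO and 51.2 and 56.2 RPKM in control. All 6 genes had OXCT1mKO values below both controls, against 37.0% of all tested genes.

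Among the 11 non-ATPase subunits of the base and lid, 6 were lower, against 16.4% of all tested genes. Psmd13, a lid subunit, led with 29.6 and 27.9 RPKM in OXCT1mKO and 49.2 and 42.1 RPKM in control (log2 fold change -0.64 ± 0.11, SE; limma adjusted p = 0.0182). Exons of Sirt3 overlap 10.1% of its exon bases on the opposite strand. Among the lid subunits, Psmd8 was at -0.54 (adjusted p = 0.0218), Psmd7 at -0.50 (0.0187) and Psmd12 at -0.43 (0.0284). The deubiquitinase of the lid, Psmd14, was at -0.38 (0.0386), a call lost without control 2 (adjusted p = 0.0615), with equal sums (0.0655), without a filter (0.0579), without a trend (0.0536) and with the replicate block (0.0547). Psmd4, a ubiquitin receptor, was at -0.48 (0.0224). Psmd11 had the smallest value, -0.15 (0.279). The large scaffold subunits Psmd1 and Psmd2, with -0.22 and -0.28, were not called. The values of all 11 were below 0 and none had overlapping groups, against 37.0% of all tested genes below both controls.

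Of the 4 chaperones of the core 3 were lower, and of the 3 of the cap 1 was, against 16.4% of all tested genes. Psmg3, a chaperone of alpha ring assembly, had 15.3 and 14.7 RPKM in OXCT1mKO, against 32.6 and 26.7 RPKM in control. Its log2 fold change of -0.93 ± 0.12 (SE; limma adjusted p = 0.013) was close to that of Psmb5. Psmg4, its partner, had 31.4 and 30.8 RPKM in OXCT1mKO and 47.4 and 46.6 RPKM in control (-0.58 ± 0.08, adjusted p = 0.0136). Psmg2 was at -0.73 ± 0.13 (adjusted p = 0.0203), and its partner Psmg1 had the smallest value of the 4, -0.42 ± 0.14 (adjusted p = 0.0781). In the cap, Psmd10 (gankyrin) was lower, with 10.02 and 9.61 RPKM in OXCT1mKO and 14.5 and 13.8 RPKM in control (-0.49 ± 0.09, adjusted p = 0.0212). Psmd5 and Psmd9 had values of -0.33 and -0.32 and did not pass (adjusted p = 0.0606 and 0.0959). Psmc3ip had 1.99 and 2.40 RPKM in OXCT1mKO and 3.87 and 3.82 RPKM in control (-0.60 ± 0.13, adjusted p = 0.0269). Its call was lost without control 1 (0.0596) and without a filter (0.0666), and exons of Mlx on the opposite strand overlap 21.2% of its exon bases.

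The tissue forms were near absent and were not tested. Psma8 had 1.02 and 0.897 RPKM in OXCT1mKO and 0.343 and 1.18 RPKM in control. Psmb11, the catalytic subunit of thymic epithelium, was listed at 0 in both OXCT1mKO libraries and at 0.0106 and 0.0182 RPKM in the control libraries.

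Genes that work with the proteasome gave a mixed picture. Of 27 tested on a list of associated factors, receptors and ubiquitin genes, 8 were lower and 2 were higher, against 16.4% each way over all tested genes, with a median of -0.09. Pomp, the chaperone that both core types need for assembly, had 144 and 144 RPKM in OXCT1mKO and 233 and 208 RPKM in control (log2 fold change -0.61 ± 0.10, SE; limma adjusted p = 0.0177). Adrm1, a ubiquitin receptor of the cap, was at -0.46 (0.0244). Rps27a, a ubiquitin fusion gene that also encodes a ribosomal protein, was at -0.98 (0.0127). The 2 higher genes encode regulators. Nfe2l2 (Nrf2), a factor known to induce proteasome genes under oxidative stress, had 65.4 and 66.0 RPKM in OXCT1mKO and 37.3 and 38.1 RPKM in control (0.79 ± 0.08, 0.0127). Ddi2, the protease that activates Nfe2l1, had 18.7 and 18.4 RPKM in OXCT1mKO and 10.6 and 12.1 RPKM in control (0.66 ± 0.10, 0.0155). Nfe2l1 (Nrf1), the factor that raises proteasome genes when proteasome activity falls, was at 0.30 (0.175). Without OXCT1mKO 1 or OXCT1mKO 2, 0 genes of the list were called.

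Genes of peptide loading onto class I MHC all had values above 0. Of 12, 3 were higher and 0 lower in the limma fit (0 lower also by unadjusted p), against 16.4% each way over all tested genes. Their median was 0.30, and 10 had both OXCT1mKO libraries above both controls, against 37.6% of all tested genes. Tapbp (tapasin), which holds class I molecules at the peptide transporter, had 94.0 and 92.9 RPKM in OXCT1mKO and 60.1 and 60.4 RPKM in control (log2 fold change 0.62 ± 0.08, SE; limma adjusted p = 0.013). Erap1, a peptide trimming enzyme, was at 0.49 (0.0268), and H2-K1, a class I heavy chain, at 0.50 (0.038). B2m was at 0.49 (0.0606). Tap1 and Tap2, the neighbours of Psmb8 and Psmb9, had values of 0.25 and 0.33 with adjusted p = 0.215 and 0.15. Nlrc5, the class I transactivator, was at 0.36 (0.0858). The number of higher genes was 6 without control 1 and 0 without OXCT1mKO 1 or OXCT1mKO 2, and H2-K1 lost its call without control 2 (0.0526).

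The interferon-gamma pathway induces the 5 immunoproteasome genes, and its list had a higher median log2 fold change than they did. That difference was not tested. Of 15 tested, 12 were higher and 1 was lower, against 16.4% each way over all tested genes. The median was 0.75, against 0.10 for the 5 immunoproteasome genes. Like the other lists, this one was chosen with earlier results of these data known, so its counts are a description. The 2 genes not called were Gbp4 (0.45, limma adjusted p = 0.162) and Socs1 (0.07, 0.711). Ciita, the class II transactivator, had 13.3 and 15.1 RPKM in OXCT1mKO and 4.93 and 3.65 RPKM in control (log2 fold change 1.53 ± 0.16, SE; limma adjusted p = 0.0127). Irf8 was at 0.91 (0.0127) and Gbp2 at 1.26 (0.013). Irf1, a direct activator of Psmb9, had 133 and 92.9 RPKM in OXCT1mKO and 64.9 and 66.8 RPKM in control (0.75 ± 0.18, 0.0383). It was not called without control 1 (0.0974) or control 2 (0.0788). The lower gene was Ifng, the cytokine itself, named after its values were seen, with 2.79 and 5.13 RPKM in OXCT1mKO and 26.2 and 11.3 RPKM in control (-1.93 ± 0.44, 0.0323). Its call was lost without control 1 (0.0537), and 0 genes of the list were called without OXCT1mKO 1 or OXCT1mKO 2.

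**Figure D4:**
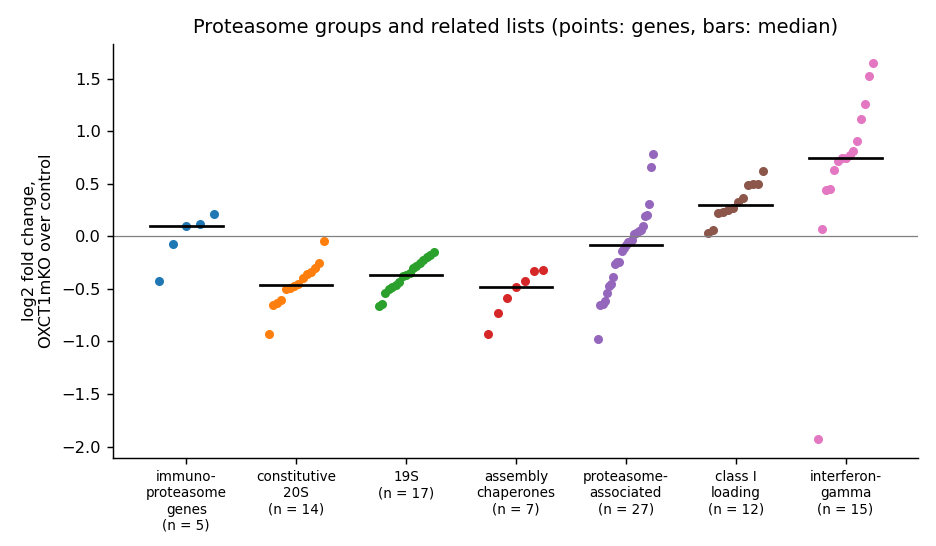
Log2 fold change of OXCT1mKO over control (y axis) for the genes of each proteasome group and related list (x axis, with the number tested); points are genes and bars medians. The constitutive core and cap have medians of -0.46 and -0.37, the class I loading and interferon-gamma lists 0.30 and 0.75, and the 5 immunoproteasome genes range from -0.42 to 0.21.

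Markers of other cells moved between the groups, and their part in these results was not tested. In bulk RNA, fewer cells of a type and less RNA per cell cannot be told apart. The 12 macrophage markers, all with a mean above 0, summed to 1801 and 1951 RPKM in OXCT1mKO and 1590 and 946 RPKM in control. Kupffer cell markers (6) summed to 373 and 223 RPKM in OXCT1mKO and 31.0 and 28.3 RPKM in control, and dendritic cell markers (8) to 121 and 155 against 43.3 and 68.3 RPKM. The endothelial list (6) summed to 602 and 532 against 246 and 315 RPKM. T and NK cell markers (9) were on the other side, with 68.5 and 124 RPKM in OXCT1mKO and 333 and 206 RPKM in control. On that list Ncr1, an NK cell receptor, went the other way and was higher (log2 fold change 0.60, limma adjusted p = 0.034). Markers of proliferating cells (6) also summed to less in OXCT1mKO, with 144 and 141 against 226 and 202 RPKM, as did those of hepatoma and epithelial cells (6), with 568 and 514 against 739 and 996 RPKM. Each of these lists had sums that did not overlap between the groups. Within them, 9 of 12 macrophage and 7 of 8 dendritic cell genes lay above both controls, against 37.6% of all tested genes. Of the hepatoma and epithelial genes, 5 of 6 lay below both controls, against 37.0%. The groups of C1qa, C1qb, C1qc, Batf3 and Krt8 overlapped. C1qa had 389 and 439 RPKM in OXCT1mKO and 475 and 227 RPKM in control. Erythroid markers (5) summed to 330 and 309 RPKM in OXCT1mKO and 24384 and 846 RPKM in control. Sums of neutrophil (6), B and plasma cell (5) and hepatocyte (6) markers overlapped. They were 570 and 387 against 156 and 1257 RPKM, 69.3 and 86.0 against 19.9 and 149 RPKM, and 574 and 394 against 546 and 465 RPKM. On the neutrophil list, 2 of 6 genes lay above both controls and 1 below, against 37.6% and 37.0% of all tested genes. The latter, Retnlg, was lower, with 22.0 and 14.5 RPKM in OXCT1mKO and 45.6 and 60.5 RPKM in control (-1.50, limma adjusted p = 0.0159). Within the hepatocyte list no gene had overlapping groups: 4 lay above and 2 below the controls, against 37.6% and 37.0% of all tested genes. Cps1 was higher (1.38, limma adjusted p = 0.0422) and Fgb lower (-1.17, 0.0127). Ncr1 was not called without control 1 (adjusted p = 0.0686) and Cps1 not without control 1 (0.106) or control 2 (0.0961), and without OXCT1mKO 1 or OXCT1mKO 2 none of Ncr1, Cps1 and Fgb was called. No marker of any list had a mean of 0.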

How the data were processed

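The authors deposited 1 table of RPKM values in which rows are gene symbols and columns the 4 libraries. Per the submitters' processing notes, STAR 2.10, R 4.0.5 and the mm10 build were used. The sources used here do not give the counter, its strand setting, the gene lengths or the library size definition. RPKM values are no counts and the absolute depth is unknown, so no count model, interval or floor is given. Ratios of low values, matched within 0.1%, placed relative depths at 0.964 for OXCT1mKO 1, 0.911 for OXCT1mKO 2 and 1.03 for control 2, with control 1 as the unit. These peaks held 5 to 12 ratios.

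Samples were grouped by their titles. A group term was fitted with limma 3.58.1 in R 4.3.3 to log2(RPKM + 1), with a trend in variance, over the 12523 genes whose mean RPKM was 1 or more. Tests were two-sided, with Benjamini-Hochberg adjustment over all genes and a threshold of 0.05. Fold changes on this scale understate those of low genes. The fit was also run on simulated data with independent noise for each gene. Those data held no shift common to a whole library, so that run does not cover such shifts. Log2 ratios within a library, on RPKM + 1, were compared by exact permutation (SciPy 1.17.1).

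Members and lists were chosen with earlier results of these data known. Genes named were Oxct1, the interferon-induced and constitutive catalytic genes, every other called proteasome gene, the largest and smallest change within each role, up to 4 genes of each list with the smallest p, and Irf1, Nlrc5, Tap1, Tap2, Nfe2l1, Pomp and Adrm1. One item that the rule names is not reported here. Psma4, Psma5, Psma6, Psmd1, Psmd2, Gbp4, Socs1, Ifng, Ncr1, Retnlg, Cps1 and Fgb were added after their values were seen. Positions are from GENCODE M21 (GRCm38) and promoters from RefSeq (GRCm38.p6). Protein sequences were not used here. Alternatives were another pseudocount (0.1), no filter and a minimum mean of 5, no trend, 2 other scalings, a replicate block and leaving out each library.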

Additional observations from a re-analysis of the deposited data

How the results depend on the processing

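Of 527 fold changes of proteasome genes recomputed over 11 alternatives, 437 kept sign and side of the threshold, 68 lost a call (48 of them in the 2 fits without an OXCT1mKO library), 13 gained one and 9 changed sign. Without a filter on low values, 2340 genes were called (1191 higher, 1149 lower), 6 of the interferon-gamma list were higher and 0 lower, and Oxct1 kept -0.37 (adjusted p = 0.0504). Oxct1 was -0.28 with equal sums without globin (adjusted p = 0.0627), and -0.37 with the replicate block (0.0577). Leaving out each library gave 1 to 4418 calls over all genes, 0 to 2362 higher and 1 to 2056 lower. It gave 0 to 25 lower and 0 to 1 higher proteasome genes, 0 to 9 lower and 0 to 3 higher associated genes, 0 to 6 higher class I genes, 0 to 11 higher and 0 to 1 lower interferon-gamma genes, and Oxct1 values of -0.41 to -0.34. With 1 library left in a group, that library was assumed to vary like the other group. Changes of sign came with equal sums for Psma3 (0.042), Psme1 (0.029), Psme2b (0.021) and Psme3 (0.053). They also came without control 1 for Psme1 (0.14), Psme2b (0.086) and the Psme1 to Psme3 ratio (0.16), without control 2 for Psmb9 (-0.058) and Psmb10 (-0.0078), and without OXCT1mKO 2 for Psma3 (0.0035). Over the leave-one-out fits Psmb9 ran from -0.06 to 0.49, Psmb10 from -0.01 to 0.24, Psme1 from -0.28 to 0.14, Psma3 from -0.10 to 0.00, Psme2b from -0.24 to 0.09 and the Psme1 to Psme3 ratio from -0.21 to 0.16. None of these genes was called in the full fit; apart from the libraries left out, the cause was not tested. The replicate numbers were not shown to pair the samples, since the differences between replicates 1 and 2 correlated at 0.05 between the groups over genes; with the number as a block, 21 proteasome genes were lower. The unknown depth limits the precision of low genes such as Psma8 and Psmb11.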
